A study of Mus musculus with 4 samples.

Results

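The Dppa genes and other markers of the undifferentiated state were followed in mouse embryonic stem cells depleted of eIF4A3. The set holds 10 genes, Dppa2, Dppa3, Dppa4, Dppa5a, Utf1, Prdm14, Sall4, Nr0b1, Tcl1 and Fbxo15, taken by gene symbol from the 37311 gene identifiers of the count files. All 10 were found and all 10 passed the count filter, among 13809 genes tested. The cells were of the J1 line (strain 129S4/SvJae), kept without feeders in serum with leukaemia inhibitory factor. They had been infected with short hairpin RNAs against eIF4A3, selected with puromycin for 3 days and lysed on day 4.5 after 1 min in cycloheximide, which holds ribosomes on the mRNA. Ribosome protected fragments (RPF, the footprints of ribosomes) and total RNA were each sequenced in 2 biological replicates, so both groups carry the knockdown. The RPF libraries were also sequenced in 4 runs, and the labels do not say whether an RPF and a total RNA library with the same number came from the same culture. The labels name 2 hairpins and do not say which replicate received which, and libraries of cells with normal eIF4A3 were not analysed here. What is compared below is therefore footprints against total RNA within knockdown cells, and no value shows what the knockdown itself did to these genes.

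Dppa stands for developmental pluripotency associated, a name given for expression in early embryos and stem cells rather than for a shared protein family. Dppa2 and Dppa4 are related chromatin proteins with a SAP domain that act as a pair, and they switch on genes of the 2-cell stage. Dppa3, also called Stella, shields the early embryo's genome during the changes of DNA methylation after fertilisation, and Dppa5a has an RNA-binding KH domain. Utf1 is a chromatin-bound regulator of stem cells, Prdm14 and Sall4 are zinc finger transcription factors, Nr0b1 (Dax1) is an orphan nuclear receptor that acts as a corepressor, Tcl1 is a coactivator of the kinase Akt, and Fbxo15 is an F-box protein used as a reporter of the pluripotent state. A footprint marks a ribosome on a coding sequence, so the number of footprints relative to total RNA is read as ribosome occupancy relative to other genes.

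The sequence around the start codon is shown for each member because it is where a scanning ribosome commits to translation. The sequences are from the annotated transcripts of GENCODE M21 (GRCm38), 9 leader bases, the start codon in capitals and the next 3 bases, 5′ to 3′.
Dppa2: tgcctgaaaATGtca
Dppa3: cgcatcgccATGgag
Dppa4: attctcaagATGgag
Dppa5a: cttggcaggATGatg
Utf1: ggctcagggATGctg
Prdm14: cagcttgcgATGgcc
Sall4: gcgcgcaccATGtcg
Nr0b1: cctcaggccATGgcg
Tcl1: tcggatgccATGgct

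All 9 members with an annotated leader of at least 9 bases have a purine 3 bases before the start codon, as do 86.5% of 12345 tested coding genes with such a leader. A G directly after the start codon is present in 5 of the 9, and in 53.1% of those genes. The leaders of 7 of the 9 hold no upstream ATG, against 48.5% of tested genes. The exceptions are Tcl1, with 2, and Sall4, with 4. One of the Tcl1 ATGs can be read in its line above as the lower case atg 5 bases ahead of the start, in another frame, whose first stop comes 38 codons on, past the start codon. Of the 4 in Sall4, those 149 and 11 bases ahead of the start are in another frame, and their first stops too come after it. Over all tested coding genes with such a leader, the median log2 ratio of RPF over total RNA was 0.21 without an upstream ATG. It was -0.18 with 1 or more and -0.38 with 4 or more. The part of upstream ATGs in the ratios of Tcl1 and Sall4 was not tested.

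The libraries held 7615277 to 9434987 gene counts each. Levels are given as CPM, the share of a library's counts per 1e6 after scaling with trimmed mean of M-values (TMM) factors, in the order RPF replicates 1 and 2, then total RNA replicates 1 and 2, and means carry the SD of 2 libraries. Eif4a3, the gene the hairpins target, stood at 212 and 193 CPM in RPF and at 120.3 and 100.6 CPM in total RNA, with no untreated level beside it. The defining stem cell markers Pou5f1, Sox2, Nanog and Zfp42 summed to 2480 to 2600 CPM in total RNA, against 36.4 to 40.7 CPM for 7 trophectoderm, 36.7 to 53.3 CPM for 6 primitive endoderm, 25.9 to 27 CPM for 5 mesoderm and neuroectoderm and 5.16 to 5.58 CPM for 7 fibroblast markers. The label of embryonic stem cells is thus met by their markers. In bulk RNA, fewer cells of a type and less RNA per cell cannot be told apart.

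Of the 10 members, 8 had more footprints per total RNA than the typical gene, 0 had fewer, and Prdm14 and Sall4 did not pass (edgeR quasi-likelihood test, adjusted p under 0.05, Benjamini-Hochberg over all genes tested). Among all tested genes 20.5% were higher and 21.2% lower, 41.7% in either direction. The median log2 ratio of the 10 members was 1.17, and that of all tested genes -0.02. Of the 8, 6 were at least 2-fold higher, as were 9.41% of all tested genes. In 9 of the 10 both RPF libraries lay above both total RNA libraries, an arrangement found in 34.9% of all tested genes.

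**Figure D1:**
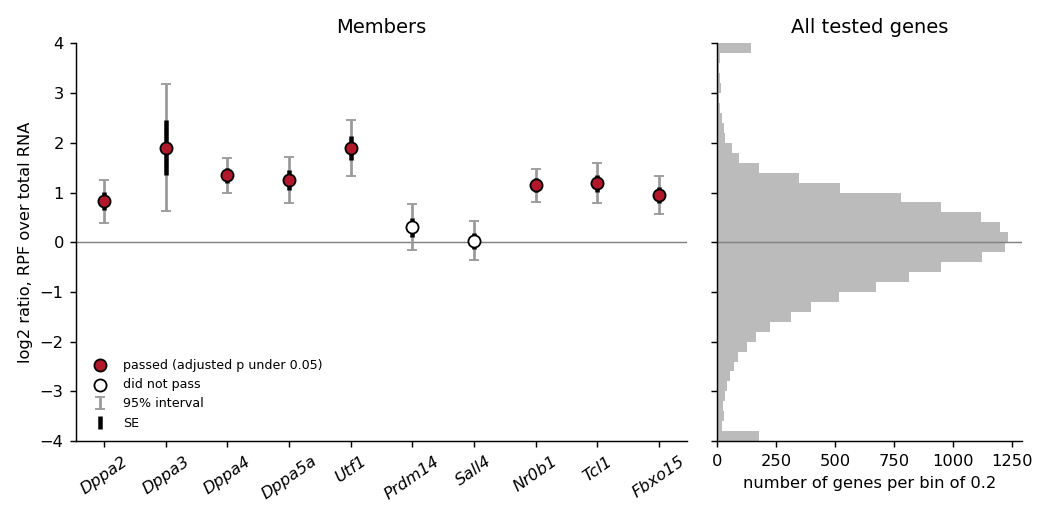
The left panel plots the log2 RPF/total RNA ratio for the 10 members, with black bars for the SE, grey bars for the 95% interval and filled points for genes that passed; the right panel is a histogram of the ratio over all 13809 tested genes, with values past the axis limits collected in the outer bins. The 8 filled points lie between 0.82 and 1.90, in the upper part of the histogram, while Prdm14 and Sall4 have intervals that include 0.

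The 4 Dppa genes covered a wide range of levels. Dppa5a was the most abundant member in RPF and close to Sall4 in total RNA CPM, with 1168 and 954 CPM in RPF and 484 and 410.1 CPM in total RNA. By CPM it was also among the most abundant genes of these cells, at rank 239 of 13809 in total RNA and rank 117 in RPF. Each RPF value was above each total RNA value, and the log2 ratio was 1.25 ± 0.20 (SE; 2.37-fold, 95% interval 1.73 to 3.27, edgeR adjusted p = 0.00319).

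Dppa4 stood at 368 and 350.2 CPM in RPF and at 147 and 135 CPM in total RNA. The replicates of each fraction were close to each other and the fractions far apart, so that the log2 ratio had one of the smallest errors of the set (1.35 ± 0.15, 2.54-fold, edgeR adjusted p = 0.00106). The gene of its partner, Dppa2, lies next to it on chromosome 16. Dppa2 had 196 and 159.5 CPM in RPF and 114 and 87.5 CPM in total RNA. Replicate 1 was above replicate 2 in both fractions, and the groups did not overlap. Its log2 ratio was 0.82 ± 0.18 (1.77-fold, 95% interval 1.31 to 2.39, edgeR adjusted p = 0.0117), the lowest among the members that passed. Across the 4 ways of setting an RPF library against a total RNA library, the log2 difference ran from 1.25 to 1.44 for Dppa4. For Dppa2 it ran from 0.49 to 1.17. These ranges do not meet, but they reuse the same 4 libraries. The 95% intervals of the log2 ratio, 1 to 1.69 for Dppa4 and 0.39 to 1.26 for Dppa2, overlap. The difference between the 2 genes was not tested. Dppa2 did not pass without total RNA replicate 2 (0.64, edgeR adjusted p = 0.087) or when scaled by library size only (0.39, adjusted p = 0.0978), a scaling that lowered the median of all genes by 0.44.

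Dppa3 was by far the lowest member in CPM. Its 2 RPF libraries held 23 (replicate 1) and 53 counts (replicate 2), and its total RNA libraries 13 and 15. The exact Poisson 95% intervals of the RPF counts were 14.6 to 34.5 and 39.7 to 69.3, and those of the total RNA counts 6.92 to 22.2 and 8.4 to 24.7, covering counting error only. In CPM this was 2.97 and 7.73 against 1.27 and 1.55. Both RPF values were above both total RNA values, but the RPF replicates differed from each other beyond counting error. The log2 ratio was 1.90 ± 0.55 (3.74-fold, 95% interval 1.53 to 9.13, edgeR adjusted p = 0.0286). The call rested on single libraries, since it was lost without RPF replicate 2 (1.09, edgeR adjusted p = 0.125) and without total RNA replicate 1 (1.77, adjusted p = 0.0774).

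**Figure D2:**
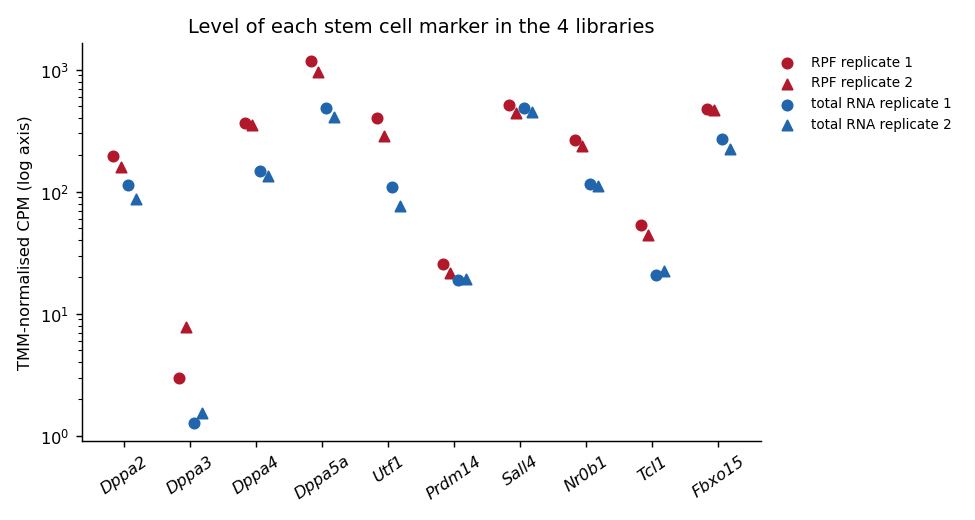
TMM-normalised CPM of each member on a log axis, with RPF libraries in red, total RNA libraries in blue, circles for replicate 1 and triangles for replicate 2. The red points of 9 members lie above the blue ones, those of Sall4 lie among them, and Dppa3, at 1.27 to 7.73 CPM, stands below all other members.

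The coding sequences of the Dppa genes have many processed copies in the genome, which bears on how reads from them can be placed. Over 28-base stretches, about the size of a footprint, 92.2% of the Dppa2, 81.7% of the Dppa5a, 76.4% of the Dppa4 and 64.5% of the Dppa3 coding stretches also occur in another annotated gene. At the 50 bases of the sequencing reads the shares were 81.6%, 55.7%, 60.9% and 33.9%. For Utf1, Sall4, Nr0b1, Tcl1 and Fbxo15 the share was 0 at both lengths, and for Prdm14 it was 2.29% at 28 bases and 0 at 50. Over whole transcripts, untranslated bases included, the 50-base shares were lower. They were 36.7% for Dppa2, 38.6% for Dppa5a, 35.9% for Dppa4 and 17.7% for Dppa3. Of the coding 28-base stretches, the pseudogenes Gm9788 (86% of the Dppa2 stretches), Dppa3-ps (62.4% of Dppa3) and Gm14058 (54.4% of Dppa4) held the largest parts. The pseudogenes listed in the files were nearly empty. The 4 listed pseudogenes of Dppa2 had 0 counts in every library, the 6 of Dppa5a had at most 2, the 2 of Dppa3 at most 1, and the 4 of Dppa4 at most 12. The annotation holds more such pseudogenes, 9 for Dppa2, 9 for Dppa5a, 4 for Dppa3 and 5 for Dppa4. Those not listed, such as Gm8023 (64.2% of the Dppa2 stretches), have no counts to show. Pigp, a gene of glycolipid anchor synthesis with a transcript that shares 19.6% of the Dppa5a stretches, had 40 to 86 counts. Each file also reports 2403701 to 2918537 alignments as not unique, and how shared reads were placed by the authors' alignment is not given in the sources used here. The counts of the 4 Dppa genes are uncertain for this reason, and the part of shared sequence in their ratios was not tested.

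The longest coding stretch in which no 28 bases occur in another annotated gene is printed for each of the 4, since footprints there can be told from those of an annotated copy. Copies outside the annotation were not searched for. Positions count from the first base of the start codon, and the sequences are again from GENCODE M21.
Dppa2, bases 83 to 148: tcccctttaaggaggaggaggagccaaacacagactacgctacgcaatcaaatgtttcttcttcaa
Dppa3, bases 138 to 204: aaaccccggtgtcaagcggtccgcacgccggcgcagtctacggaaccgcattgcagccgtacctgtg
Dppa4, bases 283 to 414: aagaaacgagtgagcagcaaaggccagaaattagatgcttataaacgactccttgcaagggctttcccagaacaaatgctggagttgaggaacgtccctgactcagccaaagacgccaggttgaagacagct
Dppa5a, bases 197 to 246: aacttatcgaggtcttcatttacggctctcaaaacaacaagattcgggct

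Such stretches are short, from 50 bases in Dppa5a to 132 bases in Dppa4, within coding sequences of 354 to 903 bases. The reference is not of the 129 strain, so bases that differ between strains were not taken into account.

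**Figure D3:**
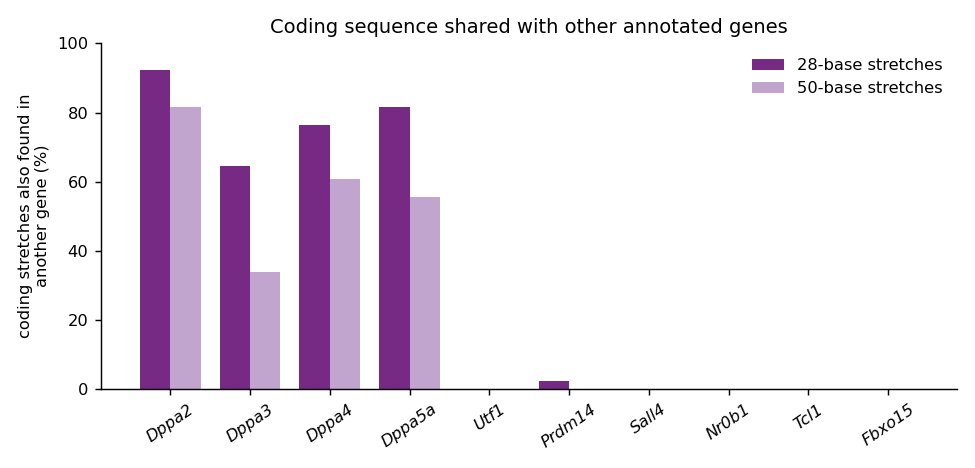
Share of the coding 28-base (dark) and 50-base (light) stretches of each member that also occur in a transcript of another annotated gene elsewhere in the genome, in percent. The 4 Dppa genes stand between 33.9% and 92.2%, and the other members between 0 and 2.29%.

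Utf1, which has no shared stretches, stood at 404 and 284 CPM in RPF and at 108.5 and 76.6 CPM in total RNA. The lowest RPF library was far above the highest total RNA library. Its log2 ratio of 1.89 ± 0.24 (3.72-fold, 95% interval 2.51 to 5.51, edgeR adjusted p = 0.0016) was as high as that of Dppa3 and had a smaller error, at percentile 97.7 of all tested genes. Replicate 1 exceeded replicate 2 by 0.50 on the log2 scale in each fraction, so the level of Utf1 differed between replicates while the ratio of same-numbered libraries was 1.9 and 1.89. Utf1 has a GC-rich coding sequence (65.7%, against a median of 53.2% over tested coding genes), the highest of the set.

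Prdm14 and Sall4 are the members that did not pass. Prdm14, which represses FGF signalling and DNA methyltransferases in stem cells and founds the germ line, had 25.3 and 21.6 CPM in RPF and 18.8 and 19.2 CPM in total RNA. The RPF values lay just above the total RNA values, and the difference did not pass (log2 ratio 0.30 ± 0.19, 1.24-fold, 95% interval 0.903 to 1.69, edgeR adjusted p = 0.238). Sall4 is a partner of the core pluripotency factors that recruits the NuRD deacetylase complex. In CPM, which are not divided by length, Sall4 was among the highest members. It had 512 and 442 CPM in RPF and 485 and 449 CPM in total RNA. Its groups overlapped, and the log2 ratio was 0.03 ± 0.16 (1.02-fold, 95% interval 0.781 to 1.34, edgeR adjusted p = 0.894). A log2 ratio as large as the median of the members lies outside both intervals. An antisense transcript gene, Gm14261, overlaps 526 exonic bases of Sall4 and had 3 to 22 counts, and the strand setting of the counting is not given in the sources used here.

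Nr0b1 had 264 and 239 CPM in RPF and 116 and 110.7 CPM in total RNA. Replicates agreed closely in both fractions, within 0.14 on the log2 scale. The log2 ratio was 1.15 ± 0.14 (2.22-fold, 95% interval 1.76 to 2.79, edgeR adjusted p = 0.00151), and the call was kept under all 15 alternative settings.

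Tcl1 was a gene of moderate level, with 53.7 and 44.5 CPM in RPF and 20.9 and 22.2 CPM in total RNA. Its groups were well apart, and the log2 ratio was 1.19 ± 0.17 (2.28-fold, 95% interval 1.72 to 3.01, edgeR adjusted p = 0.00241). Its transcript has the lowest coding share of the set, 24.9%, and among tested coding genes with a coding share of up to 40% only 12.7% were higher. With the trend against coding share taken off, the log2 ratio of Tcl1 was 1.64, and with exon length taken off as well it was 1.23. Fbxo15, the substrate-binding part of an SCF ubiquitin ligase, had 479 and 466 CPM in RPF and 269 and 223 CPM in total RNA. The RPF replicates were nearly equal and both above total RNA, with a log2 ratio of 0.94 ± 0.16 (1.92-fold, 95% interval 1.47 to 2.51, edgeR adjusted p = 0.00461). Without total RNA replicate 2 it did not pass (0.81, edgeR adjusted p = 0.0564).

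**Figure D4:**
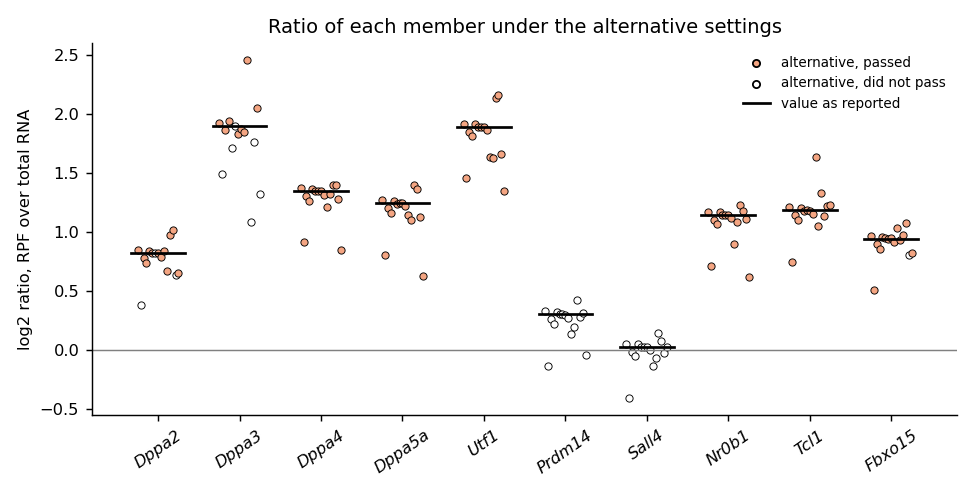
Log2 ratio of each member as reported (black line) and under each alternative setting (points, filled where the adjusted p was under 0.05). Dppa4, Dppa5a, Utf1, Nr0b1 and Tcl1 have only filled points, Dppa2, Dppa3 and Fbxo15 have some open ones, and Prdm14 and Sall4 have only open ones that lie on both sides of 0.

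Levels were compared between genes per length, as CPM per kb of coding sequence for footprints and per kb of transcript for total RNA. In total RNA Dppa5a led with 722 ± 83.8 CPM per kb, followed by Fbxo15 (171 ± 22.7), whose transcript model holds almost no untranslated bases, Dppa4 (95.5 ± 5.62), Sall4 (92.1 ± 5.10), Utf1 (75.4 ± 18.4), Nr0b1 (62.8 ± 2.14), Dppa2 (51.7 ± 9.56), Tcl1 (15.4 ± 0.626), Prdm14 (7.41 ± 0.11) and Dppa3 (1.69 ± 0.234). Neighbours in this order whose libraries overlapped were Dppa4 with Sall4 and Utf1 with Nr0b1. In footprints the order was Dppa5a (2997 ± 426 CPM per coding kb), Dppa4 (404.5 ± 14.3), Utf1 (338 ± 82.8), Fbxo15 (329 ± 6.54), Dppa2 (197 ± 28.9), Nr0b1 (178 ± 12.6), Sall4 (149 ± 15.4), Tcl1 (141 ± 18.7), Prdm14 (13.9 ± 1.58) and Dppa3 (11.9 ± 7.47). Here Dppa4, Utf1 and Fbxo15 overlapped as neighbours, as did Dppa2 with Nr0b1, Sall4 with Tcl1 and Prdm14 with Dppa3. Sall4 was thus level with Dppa4 in total RNA and with Tcl1 in footprints.

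By their medians the members are compact transcripts. Their median transcript length was 1458 bases and their median coding length 960 bases, against 3034 and 1416 bases over 12655 tested coding genes. The longest were the 2 that did not pass, Sall4 with 5073 and 3201 bases and Prdm14 with 2564 and 1683. The median coding share of the members was 61.5% against 53.5%. Across tested coding genes the ratio was higher where the coding share was higher. The median log2 ratio rose from -0.32 in tested coding genes with a share of up to 40% to 0.27 in those above 80%. With the trend against coding share and exon length together taken off, 7 of the 10 members passed as higher, with a median of 0.74, beside 18.6% of the genes tested in that setting. Under it the log2 ratio of Dppa5a was 0.63 instead of 1.25, that of Nr0b1 0.62 instead of 1.15, that of Dppa4 0.85 instead of 1.35 and that of Utf1 1.35 instead of 1.89. Dppa3 did not pass (1.32, edgeR adjusted p = 0.0982).

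Beside the counts of each related list below stand the shares over all tested genes, 20.5% higher and 21.2% lower. The lists are not fully separate. Dnmt3l is in both the stem cell and the DNA methylation list, and Zfp42 and Pou5f1 are also defining stem cell markers. Other transcripts typical of stem cells and early embryos mostly had higher ratios as well, with 18 of 27 tested genes higher, 2 lower and a median of 0.86. Trap1a, an X-linked embryonic antigen, was the highest (217.6 and 253 CPM in RPF, 59.4 and 51.9 CPM in total RNA, log2 ratio 2.08 ± 0.16, edgeR adjusted p = 0.000488). Fgf4, the growth factor that primes stem cells to differentiate, was the lowest (77.8 and 56.9 against 157 and 121 CPM, -1.05 ± 0.20, adjusted p = 0.00693). After the trend against coding share and exon length was taken off, 13 of the 27 were higher and 2 lower, with a median of 0.71. Tested against a fold of 1.5, 9 were higher and 1 lower. With library size only the list had 9 higher and 4 lower, and without total RNA replicate 2 it had 12 and 1. Among the 4 defining stem cell markers, Nanog (1.01 ± 0.17, adjusted p = 0.00417) and Zfp42 (0.77 ± 0.19, adjusted p = 0.0181) were higher, while Pou5f1 (-0.01 ± 0.21, adjusted p = 0.98) and Sox2 (0.25 ± 0.15, adjusted p = 0.218) did not pass. High ratios were also seen in some markers of other cell types. The median was 1.36 over 5 tested trophectoderm markers, of which the keratin genes Krt8 and Krt18 were higher. It was 1.18 over 3 tested fibroblast markers, of which the collagen gene Col1a2 was higher on few reads (14 and 20 counts in RPF, 7 and 4 in total RNA). Over 6 primitive endoderm markers the median was 0.52, and over 2 tested mesoderm and neuroectoderm markers 0.14, with 0 higher in either list. The summed level of the trophectoderm list was 93.1 and 83.8 CPM in RPF, and that of the fibroblast list 12.9 and 11.5 CPM. Their part in the members' ratios was not tested. Of 9 tested genes of the 2-cell stage, which Dppa2 and Dppa4 can switch on, 0 were higher and Zscan4c was lower (20.3 and 10.8 against 42.2 and 24.5 CPM, -1.09 ± 0.36, adjusted p = 0.0465). These genes were low and differed between replicates, with a sum of 187 and 109 CPM in total RNA replicates 1 and 2. Without RPF replicate 1, 4 were lower. Without RPF replicate 2, 2 were higher and 1 lower, without total RNA replicate 1, 1 was higher and 0 lower, and without total RNA replicate 2, 2 were lower. Zscan4c belongs to a cluster of near-identical copies, so its count is uncertain.

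Around Dppa3, whose protein restrains the methylation maintenance factor UHRF1, 8 genes of DNA methylation were examined. The cofactor Dnmt3l (1.56 ± 0.32, edgeR adjusted p = 0.00882) and the maintenance enzyme Dnmt1 were higher, while the de novo enzymes Dnmt3a (0.16 ± 0.28, adjusted p = 0.672) and Dnmt3b (0.60 ± 0.26, adjusted p = 0.106) did not pass. Tet1, Tet2 and Tet3, which oxidise methylcytosine, were lower. Tet3 was the lowest of the list (5.04 and 6.56 against 12.3 and 15.2 CPM, -1.25 ± 0.28, adjusted p = 0.0118), and Uhrf1 itself did not pass (0.78 ± 0.30, edgeR adjusted p = 0.0761). Of the 8 genes 2 were higher and 3 lower, with 4 higher and 3 lower without RPF replicate 2 or total RNA replicate 1, and 1 higher and 2 lower without total RNA replicate 2. Over all tested genes 20.5% were higher and 21.2% lower. Among 12 germ cell factors and Prdm14 partners, 2 were higher, led by the RNA-binding Dnd1 (1.24 ± 0.34, adjusted p = 0.0243), and 1 was lower, the Prdm14 corepressor Cbfa2t2 (-0.83 ± 0.15, adjusted p = 0.00505). Without RPF replicate 2 these counts were 4 and 2, and the higher count was 1 without total RNA replicate 1.

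NuRD subunits and the other Sall genes, 14 in all, had 7 higher and 0 lower members, each of the 7 a NuRD subunit. The other 7, NuRD subunits among them, did not pass. The deacetylase Hdac1 was the highest (551 and 446 against 211 and 165 CPM, 1.41 ± 0.19, edgeR adjusted p = 0.00208), and Hdac2 the lowest that passed (0.59 ± 0.14, adjusted p = 0.0144). Sall1 (-0.45 ± 0.28, adjusted p = 0.228), Sall2 (0.26 ± 0.33, adjusted p = 0.552) and Sall3 (-0.50 ± 0.27, adjusted p = 0.173) did not pass, as for Sall4. After the trend against coding share was taken off, 4 of the 14 were higher and 1 lower, with a median of 0.27 instead of 0.43. With exon length taken off as well, 6 were higher and 1 lower, with a median of 0.36. With library size only, 3 of the 14 were higher and 5 lower, and without total RNA replicate 2, 3 were higher. Without RPF replicate 1, 7 were higher and 3 lower. Of 4 tested genes around Nr0b1, 1 was higher, beside 20.5% of all tested genes. It was Stat3, the effector of leukaemia inhibitory factor (0.58 ± 0.16, adjusted p = 0.0264), while Nr5a2, Esrrb and Pou5f1 did not pass. Without total RNA replicate 1 or 2, 0 of the 4 passed.

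Of 7 tested genes among the relatives of Tcl1 and the Akt pathway, 0 were higher and 6 lower, with a median of -1.34. The relative of Tcl1 among them, Mtcp1, was one of the 6, on few reads (10 and 22 counts in RPF, 67 and 50 in total RNA, log2 ratio -1.40 ± 0.47, edgeR adjusted p = 0.048). Akt1 did not pass (-0.55 ± 0.19, adjusted p = 0.0523). The catalytic subunit Pik3ca had the lowest log2 ratio (24.7 and 21.6 against 57 and 71.7 CPM, -1.47 ± 0.18, edgeR adjusted p = 0.00145), and Akt2 (-0.55 ± 0.14, adjusted p = 0.0178) the one nearest 0 among those that passed. The median coding share of these 7 genes was 30.3%. With the trend against coding share taken off, 5 were lower with a median of -0.86. With exon length taken off as well, 4 were lower with a median of -0.71. The median was -1.21 without total RNA replicate 1 and -1.26 without total RNA replicate 2. The 5 Tcl1b genes were below the count filter. Among the SCF subunits that work with F-box proteins such as Fbxo15, 2 of 5 were higher, the RING protein gene Rbx1 (1.18 ± 0.15, adjusted p = 0.00154) and the adaptor gene Skp1a (0.61 ± 0.16, adjusted p = 0.0221). Without total RNA replicate 1 or 2, 1 of the 5 was higher, and without RPF replicate 2, 4 were.

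**Figure D5:**
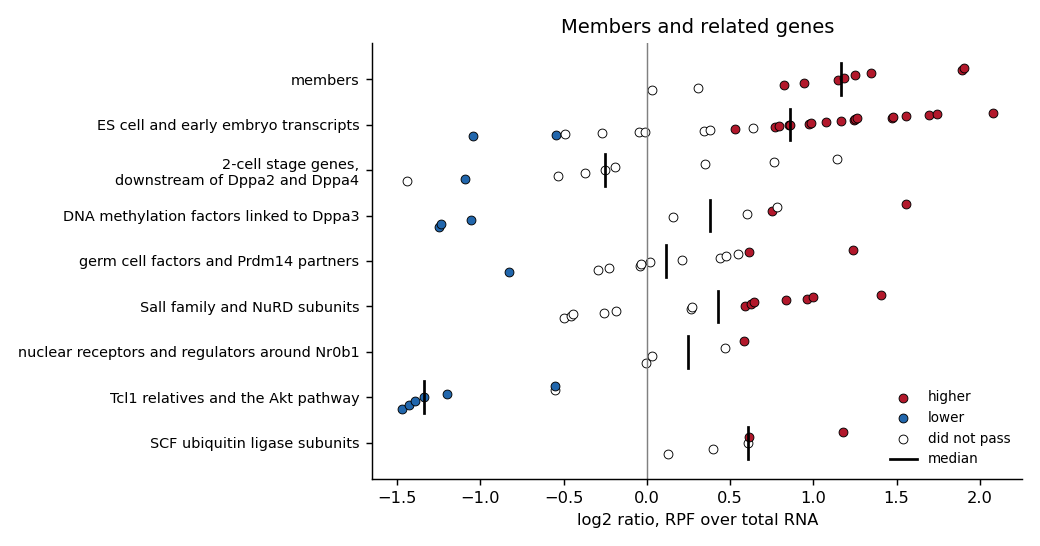
Log2 ratio of every tested gene in the member set and in 8 lists of related genes, 1 point per gene in each list. Red marks higher, blue lower and white genes that did not pass, with a black line at each median. Dnmt3l appears in both the stem cell and the DNA methylation list. The members have a median of 1.17, and the Tcl1 relatives and Akt pathway genes lie wholly below 0 with a median of -1.34.

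By profile over the 4 libraries, the related gene nearest to each member among 85 was found from the root mean square difference of centred log2 CPM. Nr0b1 (0.05) and Fbxo15 (0.11) both lay nearest to Tdh, the threonine dehydrogenase of mouse stem cells. Dppa5a (0.06) and Tcl1 (0.07) lay nearest to Alpl, the alkaline phosphatase used to stain stem cell colonies. Dppa4 lay nearest to Khdc3 (0.06), Dppa2 to Dnmt1 (0.05), Sall4 to Jam2 (0.08), Prdm14 to Ehmt1 (0.09), Utf1 to Dnmt3l (0.22) and Dppa3 to Sox15 (0.24). With 4 libraries these distances are descriptions of those libraries only.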

How the data were processed

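For 2 RPF and 2 total RNA libraries the authors deposited 1 file each of whole-number counts by gene, with HTSeq tallies, which were left out. Per the submitters' processing notes reads were handled with TopHat2 2.1.1, Bowtie 1.2.3, edgeR 3.26.8 and HTSeq 0.11.2, on mm9. The counted feature, strand setting and annotation release: not given in the sources used here. Reads counted as ambiguous equalled 7.29% and 13.4% of gene counts in RPF and 1.27% in each total RNA library. Reads in no counted feature equalled 8.75% and 10.4% of gene counts in RPF and 39.4% and 46.2% in total RNA. The part of these tallies in the ratios was not tested. Symbols came from GENCODE M21 by identifier without version (32621 of 37311 matched). Because builds differ, no coordinates are given. Transcripts were chosen by completeness, CCDS, APPRIS, support level and length.

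Counts were fitted in edgeR 4.0.16 (R 4.3.3) by fraction, after filterByExpr (minimum count 10, minimum total 15) with TMM factors of 0.821 and 0.902 (RPF) and 1.14 and 1.18. Tests were two-sided with a threshold of 0.05. SE is the log2 ratio over the root of F. The fit was run on simulated counts with few changed genes, all of high count, and no replicate effect. It therefore does not test changes at low counts such as those of Dppa3. Alternatives used DESeq2 1.42.0, limma 3.58.1 and other settings. Named genes are the members, Eif4a3, the stem cell markers, and the highest and lowest called gene of each related list and the nearest in profile; others (Dnmt1, Tet1, Tet2, Uhrf1, Sall1 to Sall3, Nr5a2, Esrrb, Dnmt3a, Dnmt3b, Mtcp1, Akt1, Krt8, Krt18, Col1a2) were added after their values were seen. Members and lists were chosen with earlier results of these data known.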

Additional observations from a re-analysis of the deposited data

How the results depend on the processing

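The count of members with a higher ratio was 6 to 8 of 10 under all 15 alternatives, and 0 were lower in each. With each library left out in turn it was 6 to 8. Dppa4, Dppa5a, Utf1, Nr0b1 and Tcl1 passed in all of them, Fbxo15 in 14 of 15, Dppa2 in 12 of 15 and Dppa3 in 8 of the 14 that kept it, and Prdm14 and Sall4 in 0. With library size only, 6 members passed, the median of all genes moved by -0.44, and the counts over all genes were 1223 higher and 4961 lower; Prdm14 (-0.13) and Sall4 (-0.40) changed sign. The ratio of Prdm14 was -0.042 with coding share and exon length corrected together, an alternative chosen after seeing the data, under which 1795 genes were lower. Sall4 was also negative without a count filter (-0.011), at a mean of at least 10 CPM (-0.05), after correction for coding share (-0.13), and without total RNA replicate 2 (-0.026), and ran from -0.066 without RPF replicate 1 to 0.149 without RPF replicate 2. Against a fold of 1.5 (glmTreat), 6 members, 1155 higher and 1549 lower genes passed, and Dppa2 (adjusted p = 0.14) and Dppa3 (0.0709) did not. Dppa3 also failed with limma-voom (adjusted p = 0.0529) and with library size only (0.0704). Leaving out 1 library gave 1720 to 3341 higher and 1857 to 3440 lower genes over all tested, the lowest without total RNA replicate 2. With replicate number as a block, 4257 genes were higher and 4365 lower, and 8 members were again higher. Under that block the NuRD and Sall list had 8 higher and 4 lower, the 2-cell genes 2 and 4, the germ cell factors 6 and 2, the DNA methylation genes 4 and 3, and the SCF subunits 4 and 0. The difference between replicates 1 and 2 correlated across genes between fractions (Pearson's r 0.412 over 13809 genes and 0.614 over the 9021 with a mean of at least 10 CPM), but with 2 pairs the labels do not say that a number marks a shared culture. The cause of these changes was not tested.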
